A study of Mus musculus with 2 samples.

Results

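The genes Cd34, Ly6a, Kit, Flt3 and Cd48 encode surface proteins with which blood stem and progenitor cells are told apart by antibody. These 5 genes, of 27998 in the deposited matrix, were found by symbol and described over the cells of a sorted progenitor gate. Single cells came from C57BL/6 Spp1-/- mice, which lack osteopontin, and from wild-type C57BL/6 mice. Both were sampled 20 h after thioglycollate, an irritant, was injected into the peritoneal cavity. Bone marrow cells were sorted as Lin–Sca-1+c-kit+CD34+Flt3L+, in the labels' spelling, and processed for 10x 3′ sequencing. Cd48 is not among the antigens of that gate.

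Each genotype was 1 sample, and the labels do not say how many mice went into it. The matrix tells its 2 libraries apart by the suffix of the barcode, and no label ties a suffix to a genotype. They are called library 2 and library 1 here, ratios are library 2 over library 1, and no difference was given a direction by genotype. Spp1 itself had 1 UMI (a unique molecular identifier, which marks 1 captured transcript) in library 2 and 33 UMIs in library 1, and these counts were not used to name the libraries. Cells with at least 500 genes and under 10% mitochondrial UMIs were kept, which left 4570 of 4572 barcodes in library 2 and 3253 of 3312 in library 1. They held 18750468 UMIs in library 2 and 10118499 in library 1, with medians of 3836 and 2830 UMIs per cell. The libraries shared 32 barcode sequences. With 1 library per genotype no test between genotypes was possible. All intervals are exact 95% intervals for counting error alone and hold no variation between mice.

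CD34 is a sialomucin of early blood cells and endothelium. Ly6a encodes Sca-1, a small lipid-anchored protein of the Ly6 family whose transcription is known to respond to interferons. Kit and Flt3 are related receptor tyrosine kinases, bound by stem cell factor and by Flt3 ligand. In mouse marrow, Flt3 is known to be gained as stem cells turn into multipotent and then lymphoid-primed progenitors, and Kit is known to be reduced in common lymphoid progenitors. CD48 belongs to the SLAM family, binds CD244, and is absent from the surface of most long-term stem cells. A sort selects protein at the surface, whereas only RNA was counted here.

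All 5 genes were measured in both libraries, and none differed between them by 1.5-fold. Among the 7526 genes with at least 200 UMIs, 4.78% differed by that much in either direction. Cd34 gave 8568 UMIs in library 2 and 4183 in library 1, or 457 and 413 counts per 1000000 UMIs (CPM), a log2 ratio of 0.14 (interval 0.09 to 0.20). Ly6a gave 294 CPM in library 2 and 311 in library 1 (log2 ratio -0.08, -0.15 to -0.02). The gene of Sca-1 was thus the only member lower in library 2 at this scaling, by far less than 1.5-fold; with the libraries scaled by TMM, Kit was lower there too, at -0.07. Kit had the fewest UMIs, 687 in library 2 and 365 in library 1, which corresponded to 36.6 and 36.1 CPM (0.02, -0.16 to 0.21). Flt3 stood at 141 CPM in library 2 and 122 in library 1 (0.21, 0.11 to 0.31). Cd48 stood at 207 CPM in library 2 and 191 in library 1 (0.12, 0.04 to 0.20). The members' median log2 ratio of 0.12 was that of all 7526 genes, also 0.12, and 2 of 5 members lay above it. TMM shifted every log2 ratio by -0.09, to 0.052 for Cd34 and 0.029 for Cd48.

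Although every cell had passed the antibody gate, many held no UMI of the gene behind a gating antigen. Cd34 was seen in 80.4% of the cells of library 2 (79.2 to 81.5) and 67.8% of those of library 1 (66.1 to 69.4). Ly6a was seen in 59.0% and 54.4%, Flt3 in 41.6% and 30.3%, and Kit in 13.6% and 10.1%, library 2 given before library 1. Cd48 was seen in 49.5% of cells in library 2 and 38.6% in library 1. None of the transcripts of the 4 gating antigens was seen in 5.32% of the cells of library 2 and 10.6% of those of library 1, and all 4 were seen in 3.17% and 1.57%. These shares move with depth, so each cell was also thinned at random to 2000 UMIs, which left 4016 cells in library 2 and 2444 in library 1 and set aside 554 and 809 shallower cells. At that depth Cd34 was seen in 59.4% of cells in library 2 and 53.7% in library 1. The gaps of the other members narrowed to 40.0% in library 2 against 41.6% in library 1 for Ly6a, and 24.4% against 22.2% for Flt3. Kit then stood at 6.80% of cells in library 2 and 6.38% in library 1, and Cd48 at 31.8% and 29.8%. The intervals of the libraries overlapped for Ly6a, Kit, Flt3 and Cd48 and not for Cd34.

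Transcripts that a lineage-negative gate should lack were also read. They can show stray RNA only of cells outside the gate. Stray RNA of the sorted cells themselves could carry the members, and its part in their shares was not tested. Of 11 antigen genes of mature cells, 2 were at 0 UMIs in both libraries, Cd3e, of T cells, and Ly6g, of neutrophils. Itgam was the most often seen of the 11, in 1.73% of cells in library 2 and 1.26% in library 1. S100a8, a neutrophil gene, was seen in 0.656% of all cells in library 2 and 0.891% in library 1, and the globin gene Hbb-bs in 0.306% and 0.3996%, far under the shares of the 5 members at the same depths. Hbb-bt, another globin gene, was seen more widely, with a UMI in 9.87% of the cells of library 2 and 12.4% of those of library 1. Those shares were under that of Kit in library 2 and above it in library 1. Hbb-bt was not spread alike over the cells: between clusters of cells it ran between 9.73 and 126 CPM in library 2 and between 5.41 and 273 CPM in library 1. Its part in the shares of Kit was not tested. Of the genes read for dendritic cells, Cd74 was seen in 24.5% of the cells of library 2 and 22.5% of those of library 1. H2-Ab1, an MHC class II gene, was seen in 18.2% and 16.5%, also above the shares of Kit. The other genes read for dendritic cells were under those shares. H2-Aa was seen in 8.23% of cells in library 2 and 8.08% in library 1, and H2-Eb1 in 6.15% and 6.18%. Itgax was seen in 0.372% and 0.523%, and Siglech in 0.481% and 0.3996%. Cells with 20 or more UMIs of MHC class II genes, which mark antigen-presenting cells, numbered 2 in library 2 and 38 in library 1. In those 38 cells, of median 3035.5 UMIs, Cd48 was seen in 65.8%, Cd34 in 39.5%, Ly6a in 42.1%, Flt3 in 36.8% and Kit in 13.2%.

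The spread of UMIs between cells was not the same for the 5 genes. In thinned cells Ly6a had a variance 1.41 times its mean in library 2 and likewise 1.41 times in library 1, where counts drawn at a single rate would give equality. The dispersion beyond such sampling (variance less the mean, over the squared mean) was 0.68 in library 2 and 0.65 in library 1, against medians over genes of 0.066 and 0.12. Ly6a ranked at percentile 96.9 of 2550 genes in library 2 and percentile 92.1 of 2368 genes in library 1. Cd34, with more UMIs per cell, had far less excess, 0.094 in library 2 and 0.091 in library 1. Ly6a was thus absent from more cells than its mean would give, with 60.0% zeros against 54.4% at a single rate in library 2 and 58.4% against 53.5% in library 1. Cd48 lay between them, at 0.39 in library 2 and 0.50 in library 1. Flt3 was uneven, at 0.36 in library 2 and 0.066 in library 1. Kit never exceeded 2 UMIs in a thinned cell, so its spread says little.

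**Figure D1:**
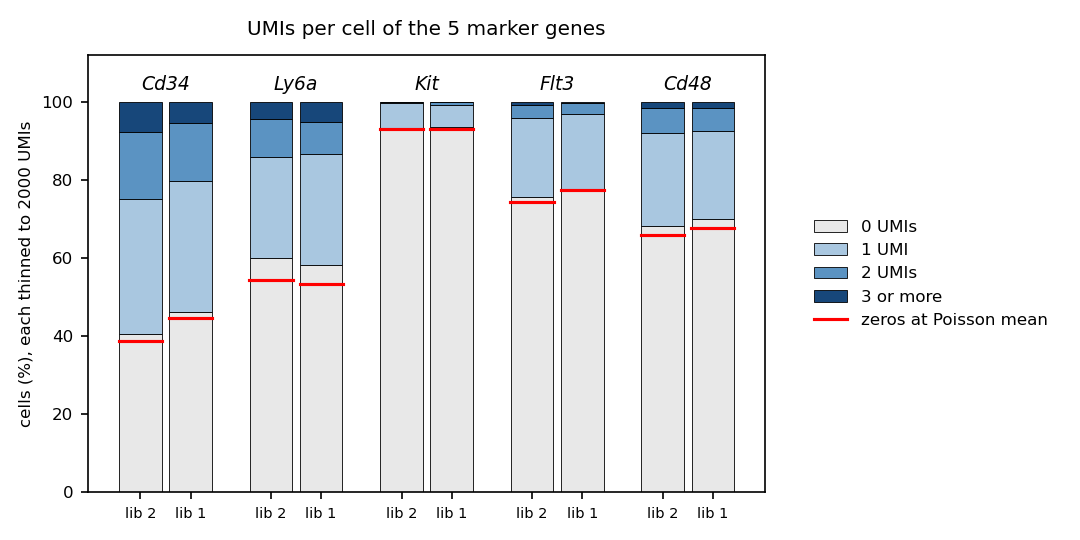
Share of cells (%) with 0, 1, 2 and 3 or more UMIs of each marker gene after each cell was thinned to 2000 UMIs, in library 2 (4016 cells) and library 1 (2444 cells). Red lines give the zeros that a single Poisson rate with the same mean would leave; the gap is widest for Ly6a, with 60.0% zeros against 54.4% in library 2 and 58.4% against 53.5% in library 1.

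Within the gate the 5 transcripts were found together about as often as their separate shares would give. In library 2, 11.7% of thinned cells held none of the 5, and the product of the separate shares was also 11.7%. In library 1, 14.1% held none, against 13.8%. Cd34 and Ly6a, the most often seen pair, were both present in 24.0% of cells in library 2, against a product of 23.8%, and in 22.4% in library 1, against 22.4%. Over the 10 pairs the ratio of the joint share to the product ran between 0.89 and 1.04 in library 2 and between 0.84 and 1.18 in library 1, and every interval held 1. The widest ratio was that of Kit and Cd48 in library 1, 1.18 (0.89 to 1.53), and the same pair stood at 1.04 in library 2. No pair was thus shown to be linked or to exclude each other at this depth, where a cell gives mostly 0 or 1 UMI per gene.

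**Figure D2:**
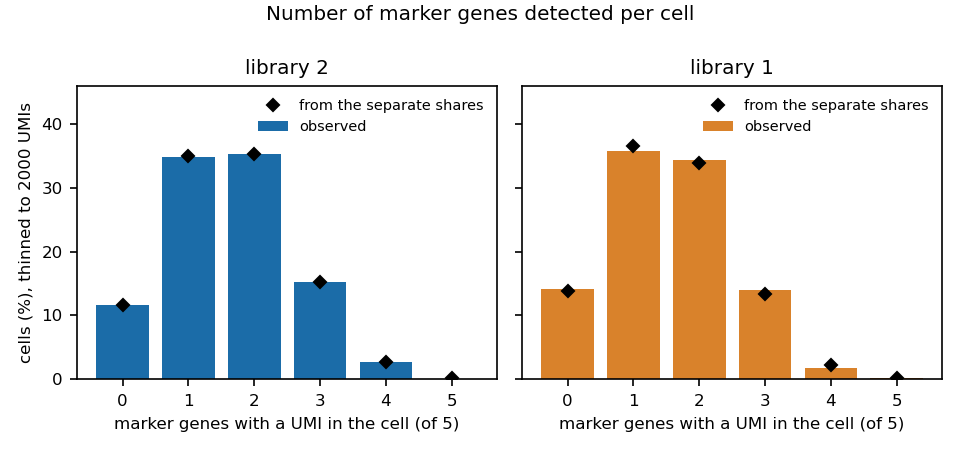
Share of cells (%) with a UMI of 0 to 5 of the marker genes, in library 2 and library 1, after thinning to 2000 UMIs. Bars are the observed shares and diamonds the shares that follow from each gene's own frequency, and they lie close, as for cells with none of the 5 (11.7% and 11.7% in library 2, 14.1% and 13.8% in library 1).

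The members were next set against programs, given as summed UMIs of stem, lymphoid, myeloid, S phase and G2 and mitosis genes in thinned cells. For each list, cells above the 90th percentile of both libraries together formed a top band and cells at or below the median a low band. The bands are ranges of a continuous sum: in each list and library between 53 and 288 cells lay within 1 UMI of the upper limit. A member was counted where its mean differed 1.5-fold between bands, out of 10 combinations of member and library. That happened in 2 for the stem list, 4 for the lymphoid list, 0 for the myeloid list, 1 for the S phase list and 2 for the G2 and mitosis list. Over all genes, the share past 1.5-fold was 22.6% in library 2 and 28.2% in library 1 for the stem list, 21.9% and 33.3% for the lymphoid list, and 21.6% and 27.7% for the myeloid list. It was 18.5% in library 2 and 35.4% in library 1 for S phase, and 20.7% and 39.2% for G2 and mitosis. Only the lymphoid count, 4 of 10, was above these shares, and it came from Flt3 and Kit, each in both libraries. The Kit value of library 1 rested on 6 UMIs in the top band, and its interval held 0. Fewer than 4 combinations passed in most alternatives, so the lymphoid count is not set apart from the share of all genes. The members are described in turn.

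**Figure D3:**
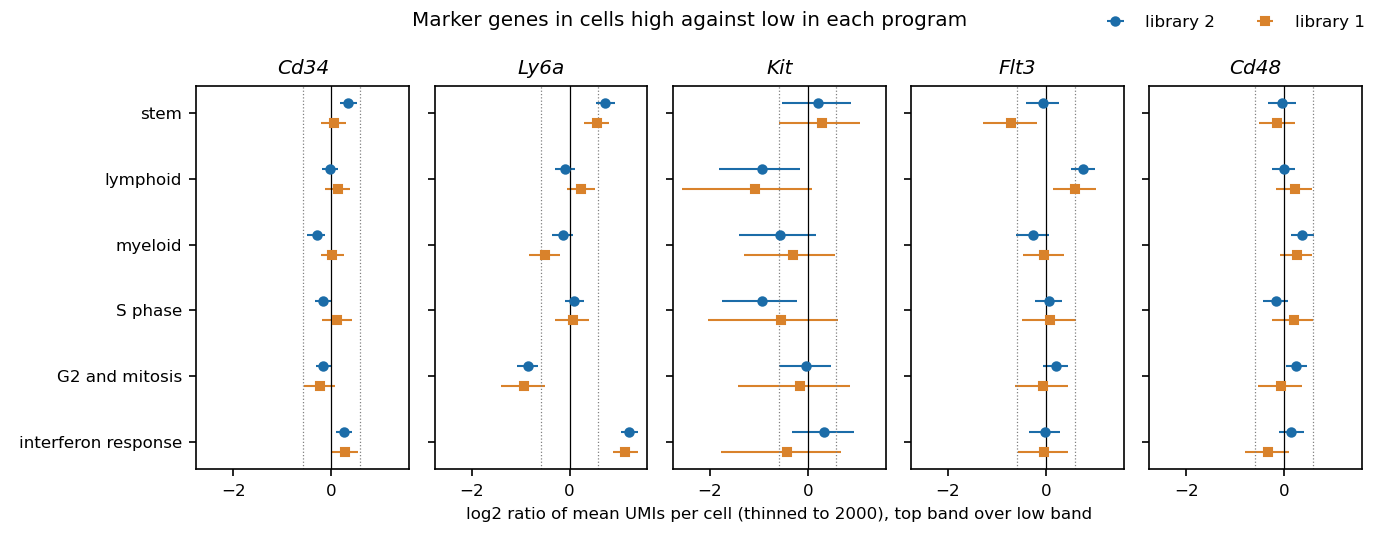
Log2 ratio of mean UMIs per thinned cell, top band over low band, for each marker gene (columns) and gene list (rows), with exact 95% counting intervals, in library 2 (circles) and library 1 (squares). Dotted lines mark 1.5-fold; Ly6a lies past them for the G2 and mitosis list (-0.86 and -0.93) and the interferon response list (1.22 and 1.14), and Flt3 for the lymphoid list (0.76 and 0.60).

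Ly6a was lower in cells rich in G2 and mitosis transcripts, a list that includes Top2a, the topoisomerase that untangles replicated DNA, and the cyclin genes Ccnb1 and Ccnb2. In library 2, Ly6a averaged 0.412 UMIs in the 512 cells of the top band and 0.747 in the 2032 cells of the low band. The same bands of library 1, of 123 and 1546 cells, averaged 0.374 and 0.713. The log2 ratio was -0.86 (-1.07 to -0.65) in library 2 and -0.93 (-1.39 to -0.51) in library 1, and it passed 1.5-fold in both libraries under all 9 alternatives tried. It lay at percentile 4.99 of all genes in library 2 and at percentile 13.9 in library 1, where 39.2% of genes passed 1.5-fold. The change was graded. Cells with 0, 1, 2 and 3 or more Ly6a UMIs carried on average 5.97, 4.89, 3.84 and 2.86 UMIs of the list in library 2. In library 1 they carried 4.03, 3.15, 2.58 and 2.20. Cells of the top band made up 12.7% of thinned cells in library 2 and 5.03% in library 1, so the libraries differed in how many such cells they held. No like difference was seen between the bands of the S phase list, where the Ly6a log2 ratio was 0.10 in library 2 and 0.06 in library 1. The other 4 members differed by less than 1.5-fold between the G2 and mitosis bands in both libraries. Of 9 alternatives, however, Kit was lower by more than that in 1 in library 2 and 3 in library 1.

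Ly6a was higher in cells with many stem list UMIs, at 0.907 UMIs in the top band and 0.547 in the low band in library 2 (log2 ratio 0.73, 0.53 to 0.93). In library 1 it averaged 0.805 in the top band and 0.549 in the low band (0.55, 0.30 to 0.80). That list is not evenly weighted: Ifitm1, an interferon-induced transmembrane protein gene, gave 88.3% of its UMIs. Without Ifitm1 the log2 ratio was 0.39 in library 2 and 0.24 in library 1, and the interval of library 1 then held 0. Without the clusters of cells led by Mgst1 and Hbb-bt or by the mitotic gene Ube2c, the ratio was 0.49 in library 2 and 0.15 (-0.15 to 0.44) in library 1. The size of the stem difference thus changed with the list and with the cells used, its direction stayed the same, and in library 1 it was then within counting error.

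Against the myeloid list, Ly6a was on the low side. It averaged 0.569 UMIs in the top band and 0.626 in the low band of library 2 (log2 ratio -0.14, -0.36 to 0.08). The means of library 1 were 0.464 in the top band and 0.660 in the low band (-0.51, -0.82 to -0.21). With all UMIs of the same cells the ratio was -0.33 (-0.47 to -0.20) in library 2 and -0.63 (-0.85 to -0.42) in library 1. It was negative under all 10 alternatives in each library, between -0.60 and -0.07 in library 2 and between -0.82 and -0.45 in library 1, and passed 1.5-fold in 1 and 5 of them.

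Across 4495 genes, those whose UMIs followed Ly6a most closely from cell to cell were Ifitm3, B2m and Ly6e. Ifitm3, another interferon-induced transmembrane protein gene, had a Pearson correlation of 0.14 in library 2 and 0.13 in library 1. B2m, the light chain of MHC class I, had 0.11 in both libraries, and Ly6e, a relative of Ly6a, had 0.10 in library 2 and 0.14 in library 1. The most opposed were Birc5, Top2a and Hmgb2, with correlations between -0.12 and -0.10, the first 2 being mitotic genes of the G2 and mitosis list. These are weak correlations in sparse counts, given as a description over 4016 cells in library 2 and 2444 in library 1, and cells of 1 library share their preparation.

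After Ifitm3 had been seen, a list of 20 interferon response genes was added, among them Isg15, Irf7 and Bst2, so its relation to Ly6a is a description of what led to it. Ly6a averaged 1.12 UMIs in the 316 top-band cells and 0.481 in the 2360 low-band cells of library 2. The 140 top-band cells of library 1 averaged 1.1 Ly6a UMIs and its 1468 low-band cells 0.5. The log2 ratio of 1.22 (1.04 to 1.39) in library 2 lay at percentile 99.2 of all genes, and that of 1.14 (0.88 to 1.39) in library 1 at percentile 97.3. Between these bands 19.1% of genes in library 2 and 33.2% in library 1 differed 1.5-fold. Ifitm3 gave 58.5% of the list's UMIs, and without it the ratio was 1.099 in library 2 and 0.90 in library 1. Among cells of the low band of the G2 and mitosis list alone, it was 1.09 in library 2 and 0.98 in library 1. The list's mean was 4.90, 5.73, 6.44 and 7.82 UMIs in cells of library 2 with 0, 1, 2 and 3 or more Ly6a UMIs, and 4.78, 5.48, 6.00 and 6.99 in library 1. Cd34, Kit, Flt3 and Cd48 each differed by less than 1.5-fold between the interferon bands in both libraries.

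**Figure D4:**
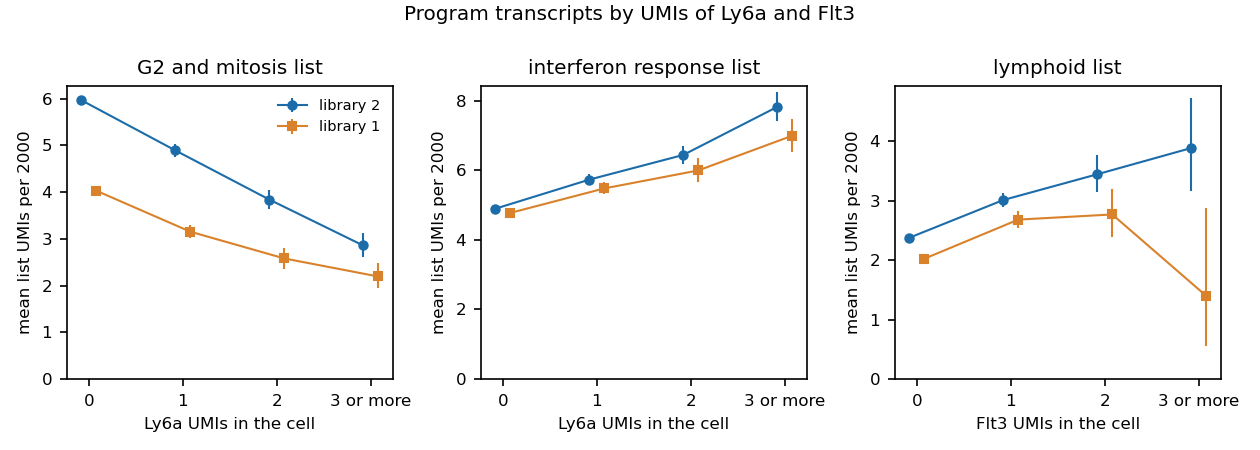
Mean UMIs of the G2 and mitosis list and the interferon response list in thinned cells by their Ly6a UMIs, and of the lymphoid list by their Flt3 UMIs, with exact 95% Poisson intervals, in library 2 and library 1. With rising Ly6a the mitotic mean falls (5.97 to 2.86 UMIs in library 2, 4.03 to 2.20 in library 1) and the interferon mean rises; the last Flt3 point of library 1 holds 5 cells.

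Flt3 and Kit went opposite ways along the lymphoid list, of which Dntt, the enzyme that adds bases at joints of rearranged receptor genes, gave 49.3% of UMIs. Flt3 averaged 0.440 UMIs in the 398 top-band cells and 0.260 in the 1971 low-band cells of library 2, a log2 ratio of 0.76 (0.50 to 1.01). Library 1 had 0.319 in 163 top-band cells and 0.211 in 1312 low-band cells (0.60, 0.14 to 1.03). These Flt3 ratios lay at percentile 95.1 of all genes in library 2 and 87.6 in library 1. Without Dntt the Flt3 ratio was 0.48 in library 2, under 1.5-fold, and 0.64 in library 1. Dntt was also the gene that followed Flt3 most closely over cells, with correlations of 0.10 in both libraries, and the ribosomal protein gene Rps14 came next. The list's mean was 2.38, 3.01, 3.44 and 3.88 UMIs in cells of library 2 with 0, 1, 2 and 3 or more Flt3 UMIs. In library 1 it was 2.02, 2.68 and 2.77 for 0, 1 and 2 UMIs, and 5 cells held more.

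Kit averaged 0.0377 UMIs in the lymphoid top band and 0.0720 in the low band of library 2 (log2 ratio -0.93, -1.81 to -0.16). In library 1 it averaged 0.0368 in the top band and 0.0777 in the low band (-1.08, -2.56 to 0.09), an interval that holds 0. These means rest on 15 Kit UMIs in the top band of library 2 and 6 in that of library 1. With another random draw of the thinning the ratio was -0.43 in library 2 and -1.21 in library 1. With all UMIs of the same cells, Kit stood at 21.0 CPM in the top band and 37.6 CPM in the low band of library 2 (-0.84, -1.42 to -0.31). In library 1 it stood at 17.6 CPM in the top band and 35.5 CPM in the low band (-1.01), from 8 UMIs in the top band, with an interval that ended just under 0. Kit was thus below Flt3 in its lymphoid ratio in both libraries, with a size that the few Kit UMIs leave wide.

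Both kinase genes lie on chromosome 5, Kit (ENSMUSG00000005672) at chr5:75574916-75656722 on the plus strand and Flt3 (ENSMUSG00000042817) at chr5:147330741-147400489 on the minus strand (GENCODE M21, GRCm38). Their promoter windows, 250 bases before to 50 after the transcript start, are shown because these receptors ran in opposite directions along the lymphoid list. The sequences are from RefSeq on GRCm38.p6, read 5′ to 3′ on the gene's strand, at chr5:147400440-147400739 for Flt3 and chr5:75574737-75575036 for Kit, the first of 2 windows listed for it. Capitals mark matches on either strand to CANNTG, the E-box bound by helix-loop-helix factors.
Flt3: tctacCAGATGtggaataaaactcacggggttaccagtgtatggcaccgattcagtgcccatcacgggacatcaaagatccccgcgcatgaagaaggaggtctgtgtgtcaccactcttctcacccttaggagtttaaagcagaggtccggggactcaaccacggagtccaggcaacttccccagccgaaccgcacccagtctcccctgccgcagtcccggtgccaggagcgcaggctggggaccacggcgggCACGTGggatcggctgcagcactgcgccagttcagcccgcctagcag
Kit: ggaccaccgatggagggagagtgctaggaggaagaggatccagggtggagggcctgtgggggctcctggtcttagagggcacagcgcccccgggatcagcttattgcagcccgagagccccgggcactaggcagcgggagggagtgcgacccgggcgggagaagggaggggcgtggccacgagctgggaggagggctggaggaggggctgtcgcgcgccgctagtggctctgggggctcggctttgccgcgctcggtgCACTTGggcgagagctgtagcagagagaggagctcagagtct
The Flt3 window held CAGATG 245 bases before the start and CACGTG 3 bases after it, and the Kit window held CACTTG 8 bases after it. An E-box was present in 72.3% of 32851 windows of this length, so its presence sets neither gene apart. Neither window held the RUNX motif TGTGGT on either strand, which 16.8% of windows held. The GATA-factor motif, searched as GATAAG on both strands, was in 7.44% of windows and in neither of these. CGGAAG, an ETS motif, was in 16.9% of windows and also in neither of these. GC content was 61% for Flt3 and 69% for Kit, against a median of 52.7%. These matches are letters, not sites of binding. Of the other members, Cd34 and Cd48 also had a window in the table, and Ly6a did not.

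Cd34 differed by less than 1.5-fold between the bands of each list. Between the stem bands its log2 ratio was 0.35 (0.17 to 0.52) in library 2, with 1.11 UMIs in the top band and 0.874 in the low band. Library 1 gave 0.05 (-0.20 to 0.29), with 0.805 UMIs in the top band and 0.779 in the low band. Against the myeloid list it was -0.30 (-0.49 to -0.12) in library 2 and 0.02 (-0.22 to 0.25) in library 1. With all UMIs of the same cells its stem ratio was 0.30 (0.17 to 0.42) in library 2 and 0.19 (0.0038 to 0.37) in library 1. With Ifitm1 left out of the list it was 0.068 in library 2 and -0.18 in library 1, and both intervals held 0. Along the interferon response list Cd34 was higher in the top band of both libraries, by 0.26 (0.087 to 0.42) in library 2 and 0.28 (0.015 to 0.54) in library 1 on the log2 scale. With Ifitm3 left out of that list the Cd34 ratio was 0.085 (-0.11 to 0.27) in library 2 and 0.16 (-0.13 to 0.44) in library 1. Both intervals then held 0. The genes that followed it most closely were Rpl3, Rpl4 and Malat1, at correlations between 0.07 and 0.11, and the most opposed were mt-Nd1, Lgals1 and Ly86, between -0.07 and -0.05.

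Cd48 stood on the high side of the myeloid list, along which Ly6a was low and of which Prtn3, the granule protease proteinase 3, gave 60.3% of UMIs. It averaged 0.522 UMIs in the top band and 0.403 in the low band of library 2 (log2 ratio 0.37, 0.14 to 0.61). Library 1 had means of 0.450 in the top band and 0.377 in the low band (0.26, -0.07 to 0.57). Neither passed 1.5-fold. Between the stem bands the ratio was -0.03 in library 2 and -0.14 in library 1, and -0.45 and -0.46 with Ifitm1 left out of the list. The genes closest to Cd48 were Prdx1, Rpl39 and Rpl22l1, with correlations between 0.06 and 0.10, and the most opposed were Wbp5, Kxd1 and Rpl37a, between -0.06 and -0.04.

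The remaining combinations past 1.5-fold depended on the setting. Flt3 in the stem bands had a log2 ratio of -0.07 in library 2 and -0.71 in library 1. The value of library 1 ran between -0.77 and -0.0061 over 9 alternatives and passed 1.5-fold in 3; the value nearest 0 came with another draw of the thinning. Kit in the S phase bands had a ratio of -0.94 in library 2 and -0.55 in library 1, from 17 and 6 UMIs in the top band. Over 9 alternatives it ran between -0.94 and -0.18 in library 2 and between -2.09 and 0.03 in library 1, past 1.5-fold in 3 in each. The genes closest to Kit, Vps13a, Anapc13 and Txndc17, had correlations of at most 0.05, and only 1 of its first 10 was kept in another draw. Of the 10 closest to Flt3, 3 were kept.

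Cells of both libraries were clustered together without the 5 members among the clustering genes, and each member's level was read in clusters with at least 100 cells in a library, 9 in library 2 and 8 in library 1. Cluster 3, led by the detoxifying enzyme gene Mgst1, the globin gene Hbb-bt and Myct1, and holding Hlf among its first 10 genes, had the highest levels of Cd34, Ly6a and Kit in both libraries. Ly6a stood there at 552 CPM (514 to 593) in library 2 and 526 CPM (486 to 568) in library 1. The next cluster, 1, led by the lymphoid genes Ly6d and Il7r, had 386 CPM in library 2 and 380 CPM in library 1, apart from cluster 3 beyond counting error in both. Ly6a was lowest in cluster 6, led by the mitotic genes Ube2c, Cenpa and Fam64a, at 208 CPM in library 2 and 186 CPM in library 1. Its highest level was thus 2.65 times its lowest in library 2 (2.41 to 2.92) and 2.83 times in library 1 (2.43 to 3.32).

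Kit followed with 57.04 CPM in cluster 3 in library 2 and 57.2 CPM in library 1, and its next highest clusters had 41.0 and 42.6 CPM. By CPM in library 2, the low Kit levels were 16.9 in cluster 9, from 4 UMIs, 17.9 in cluster 5 and 22.9 in cluster 1. Cluster 5 was led by Ly86, Slpi and the monocyte-lineage gene Csf1r. Cluster 1 of library 1 had 33.8 CPM of Kit, from 25 UMIs. Flt3 was highest in that lymphoid-gene cluster in both libraries, at 213 CPM (190 to 238) in library 2 and 173 CPM (145 to 206) in library 1. It was lowest at 121 CPM in cluster 7 in library 2, with Tgfbi and Gng11 among its leading genes, and at 111 CPM in cluster 8 in library 1, led by the replication-linked genes 2810417H13Rik, E2f8 and Hist1h1a. No 2 neighbours in the order of Flt3 levels were apart beyond counting error in either library.

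Cd34 ran between 627 CPM in cluster 3 and 300.004 CPM in cluster 5 in library 2, and between 490 CPM in cluster 3 and 371 CPM in cluster 8 in library 1. In library 1 cluster 5 held 89 cells and was not read. Of neighbours in the Cd34 order, 2 of 8 were apart in library 2 and 0 of 7 in library 1. Cd48 had a different order, with low levels in cluster 3, 152 CPM in library 2 and 131 in library 1, and in cluster 9, 139 CPM and 120 CPM. Its highest levels were 259 CPM in cluster 4, led by Hist1h2bc, Gm10384 and Cd9, in library 2 and 230 CPM in cluster 6 in library 1. Among neighbours in the Cd48 order, 1 of 8 in library 2 and 1 of 7 in library 1 were apart. By CPM, before depth per cell was made equal, the cluster with the most Ly6a and Kit was among those with the least Cd48.

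**Figure D5:**
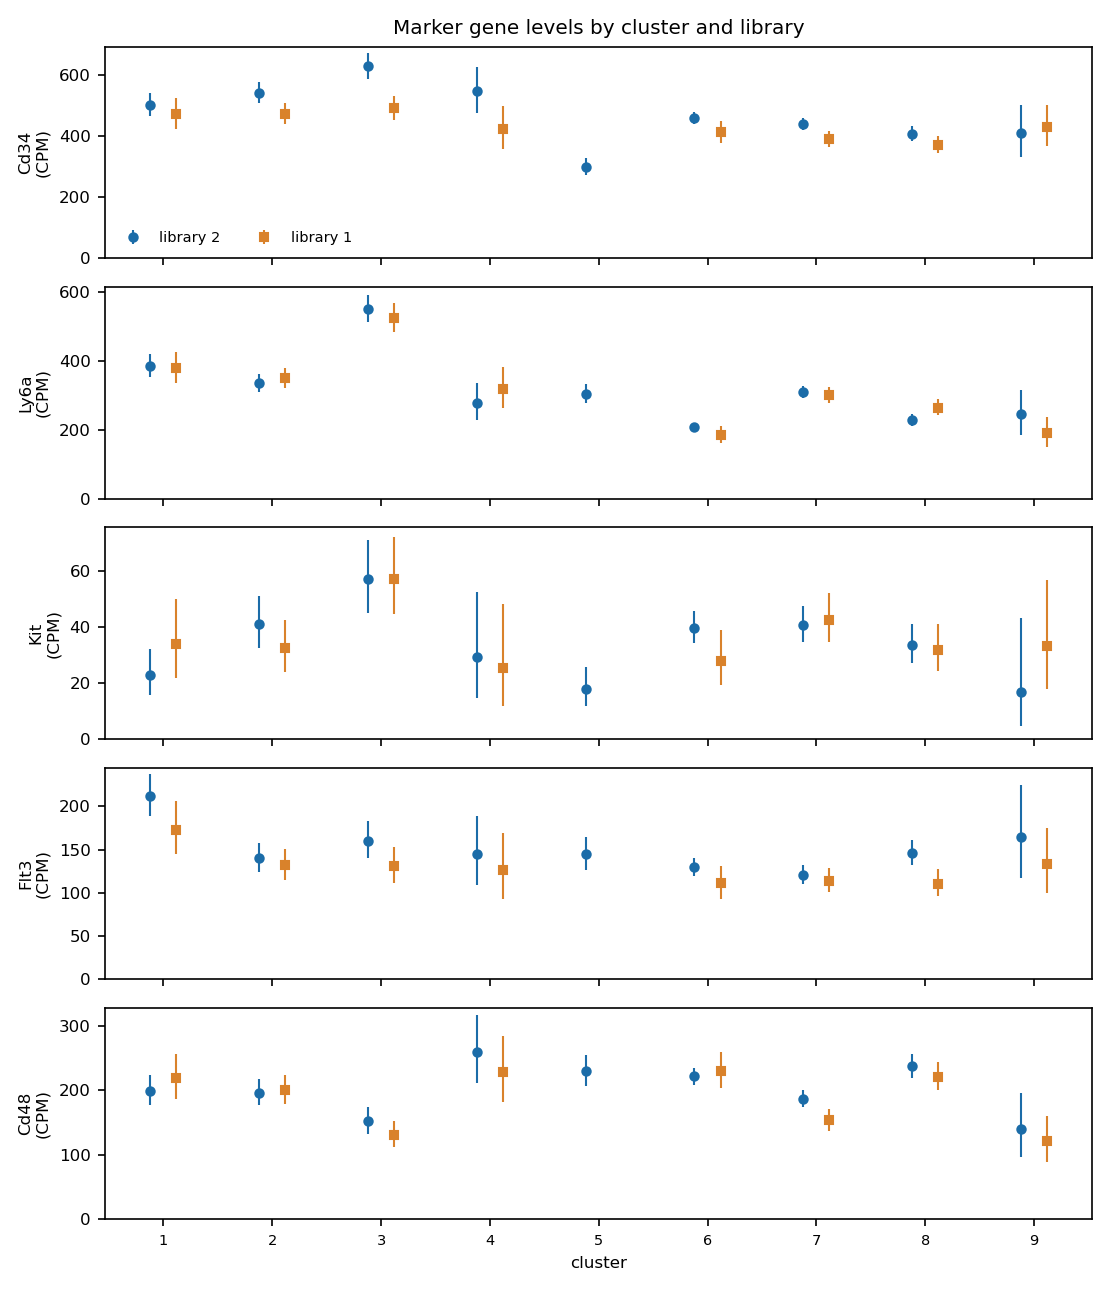
Counts per 1000000 UMIs (CPM) of each marker gene by cluster, with exact 95% Poisson intervals, in library 2 (circles) and library 1 (squares); clusters with fewer than 100 cells in a library are not drawn for it. Ly6a peaks in cluster 3 (552 and 526 CPM) and is lowest in cluster 6 (208 and 186 CPM), and Flt3 peaks in cluster 1 (213 and 173 CPM).

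Depth per cell moved with these levels. Cluster 3 had a median of 2027 UMIs and cluster 6 one of 5254.5. In cells under 2000 UMIs, Cd34 stood at 646 CPM in library 2 and 536 CPM in library 1, Ly6a at 475 and 432 CPM, and Cd48 at 140 CPM in both. In cells with 4000 or more and under 8000 UMIs, Cd34 stood at 425 CPM in library 2 and 361 CPM in library 1, Ly6a at 253 and 242 CPM, and Cd48 at 224 and 201 CPM. At an equal 2000 UMIs per cell, Ly6a still averaged 1.02 UMIs in cluster 3 and 0.420 in cluster 6 in library 2, and 1.01 and 0.324 in library 1. Cd34 in library 1 did not keep its place: at equal depth it averaged 0.851 in cluster 3 and 1.02 in cluster 1. The cells differ too, since thinning set aside those under 2000 UMIs. It left 262 of the 596 cells of cluster 3 and 184 of the 342 cells of cluster 1 in library 1. In library 2 it left 367 of the 608 cells of cluster 3. Cd48 at equal depth averaged 0.368 (0.308 to 0.435) in cluster 3 and 0.446 (0.403 to 0.493) in cluster 6 in library 2. Library 1 had 0.340 (0.273 to 0.418) and 0.453 (0.374 to 0.543) in these clusters, so the intervals overlapped in both libraries. Cluster 1 averaged 0.369 in library 2 and 0.478 in library 1, and cluster 7 averaged 0.394 and 0.314. At equal depth Cd48 was thus lower in cluster 3 than in cluster 6 in both libraries, while in library 1 cluster 7 was lower than cluster 3. Overlap of separate intervals cannot settle whether 2 clusters were apart, and no interval of the ratio was computed at equal depth.

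The relatives and partners of the members were read in 4 lists. Of 11 SLAM family genes and partners of CD48, 3 had at least 200 UMIs and none differed 1.5-fold between libraries. Cd244, the receptor that binds CD48, stood at 29.9 CPM in library 2 and 25.6 CPM in library 1, Cd84 at 26.5 and 30.4 CPM, and Ly9 at 17.0 and 14.8 CPM. Slamf1, which encodes the stem cell marker CD150, had 3 UMIs in each library, so this pair of markers could not be set against each other. Of 12 Ly6 family genes, 3 had 200 UMIs and none differed 1.5-fold. Ly6e stood at 1158 CPM in library 2 and 1165 CPM in library 1, Ly6d at 27.4 and 33.8 CPM, and Ly6c2 at 10.8 and 10.9 CPM. Of 8 sialomucin and related adhesion genes, 6 were read and none differed 1.5-fold, with Cd24a at 236 CPM in library 2 and 219 in library 1, and Selplg, the selectin ligand, at 182 and 163 CPM. Spn stood at 76.3 CPM in library 2 and 73.7 in library 1. Cd164 had the largest difference, at 26.6 and 31.6 CPM (log2 ratio -0.25).

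Of 22 genes of Kit and Flt3 signalling, 16 had 200 UMIs and 1 differed 1.5-fold, or 6.25%, against 4.78% of all genes. That was Ptpn11, the phosphatase SHP2, at 16.3 CPM in library 2 and 10.3 CPM in library 1 (log2 ratio 0.67, 0.34 to 1.002). Scaled by TMM its log2 ratio was 0.57, under 1.5-fold, which left 0 of the 16. The kinase gene Mapk3 followed at 41.8 CPM in library 2 and 31.8 in library 1 (0.39), and Ptpn6, the phosphatase SHP1, had the most UMIs, at 146 CPM in library 2 and 130 CPM in library 1. The list's median log2 ratio was 0.10, against 0.12 over all genes. The ligand genes were scarce: Kitl had 0 UMIs in both libraries, and Flt3l had 59 UMIs in library 2 and 41 in library 1. Akt1 stood at 59.6 CPM in library 2 and 61.0 in library 1, and Pik3r1, a subunit of PI3-kinase, at 58.7 and 55.3 CPM.

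The other members lie on chromosome 1, Cd34 (ENSMUSG00000016494) at chr1:194938819-194961279 and Cd48 (ENSMUSG00000015355) at chr1:171682009-171705258, both on the plus strand, and on chromosome 15, Ly6a (ENSMUSG00000075602) at chr15:74994877-74998031 on the minus strand. Reads from 10x 3′ libraries fall mostly on last exons and their untranslated ends. In the last 300 bases of each member's longest coding transcript, 0 of 251 runs of 50 bases were shared with a transcript of another gene among 141767, which holds for Ly6a as well, whose family has close copies. Annotated genes overlap 3 of the members, Gm16897 antisense to Cd34, Gm26597 antisense to Flt3, and Gm37010 on the strand of Cd48, so reads of the last cannot be told apart from Cd48 where they coincide.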

How the data were processed

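The authors deposited 1 matrix of UMI counts (27998 genes, 7884 barcodes, whole counts up to 436) holding both samples, made with Cell Ranger 1.1 on mm10 per the submitters' processing notes. Read filtering, cell calling and any equalizing of read depth are not given in the sources used here. Barcodes were kept at 500 genes or more and under 10% mitochondrial UMIs. Gene sums over the cells of a library were divided by its total to give CPM. Intervals are exact at 95% (Poisson, Clopper-Pearson, conditional Poisson for ratios), and PCR or capture effects are not in them. Kept cells held 18750468 UMIs in library 2 and 10118499 in library 1.

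Cells were thinned to 2000 UMIs (seed 1) for shares, co-detection, bands and correlations. Genes were compared between libraries at 200 UMIs over both, and between bands where both held at least 20 UMIs together. A value was called at 1.5-fold. Clustering used scanpy 1.11.5 (2000 variable genes without the members, 30 components, 15 neighbours, Leiden resolution 1). TMM factors came from edgeR 4.0.16, and no count model was fitted. No doublet caller was run, and an alternative left out the 5% of cells with the most UMIs. The scripts were checked on simulated data.

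The members and lists were chosen with earlier results of these data known. Named genes were the members, the 3 genes most alike and most opposed to each (lowest correlation of both libraries), up to 3 genes of each related list with the most UMIs and 2 with the largest ratio, each program's most abundant gene and each cluster's 3 leading genes; a few of these are not reported here. Other genes named as what a list holds, as known partners or ligands, or as background (Spp1, Cd3e, Ly6g, S100a8, Hbb-bs, Cd74, H2-Ab1) were added. Itgam, H2-Aa, H2-Eb1, Itgax and Siglech were likewise added as background.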

Additional observations from a re-analysis of the deposited data

How the results depend on the processing

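No replicates were available, so counting error was the only measure of spread, and no paired analysis was possible because each group was 1 sample. Between libraries, every member stayed under 1.5-fold in all 8 alternatives. TMM scaling gave log2 ratios of 0.052 for Cd34, -0.17 for Ly6a and 0.029 for Cd48, and thinning gave 0.23 for Cd34. TMM scaling also took Ptpn11 under 1.5-fold, which left 0 of the 16 genes of Kit and Flt3 signalling, against 1 in the report, and 0 in the other related lists as before.

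Counts of combinations of member and library past 1.5-fold between bands depended on how they were set. For the stem list, 2 in the report, there were 0 with the top band above the 75th percentile, and 1 with Ifitm1 left out, 1 without the clusters led by Hbb-bt and Hlf or by Ube2c, and 1 with all UMIs. For the lymphoid list, 4 in the report, there were 2 with the 75th percentile and fewer than 4 in most other alternatives. Flt3 fell under 1.5-fold in library 2 at 3000 UMIs (0.49) and without Dntt (0.48). In library 1 Flt3 did so without the 5% of cells with the most UMIs (0.47), without the stem top band (0.46), without those clusters (0.53) and with all UMIs (0.58). Kit did so in library 2 with another seed (-0.43) and in library 1 without Dntt (-0.29). For the myeloid list, 0 in the report, there were 2 at 1500 UMIs, 2 at 3000 UMIs, 1 with another seed, 2 without Prtn3, 1 without the stem top band and 1 with all UMIs. For S phase, 1 in the report, there were 0 with the 75th percentile, 0 with another seed and 0 without Dut. For G2 and mitosis, 2 in the report, there were 4 without those clusters, where Kit passed at -0.98 in library 2 and -0.67 in library 1. Kit also passed in library 1 at 1500 UMIs (-0.71) and with another seed (-0.84). The cause of these shifts was not tested. Ly6a kept its G2 and mitosis ratio past 1.5-fold in 9 of 9 alternatives in each library, between -0.90 and -0.71 in library 2 and between -1.01 and -0.67 in library 1. Flt3 kept its lymphoid direction in 10 of 10 and passed 1.5-fold in 8 in library 2 and 6 in library 1, and Kit in 8 and 8.

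The co-detection ratio of Kit and Flt3 in library 2 was 1.22 at 1500 UMIs. The highest over lowest cluster level in library 2 was 2.03 for Ly6a at Leiden resolution 0.5 and 3.31 at 1.5, and 1.77 for Cd34 at equal depth. In library 1 it was 1.57 for Cd34 and 2.20 for Ly6a at resolution 0.5, and 1.94 for Cd34 and 1.998 for Flt3 at 1.5. At equal depth Kit gave no such value in library 2, since cluster 9 held none. Of the first 10 genes most like each member, another seed kept 4 for Cd34, 1 for Kit, 3 for Flt3 and 6 for Cd48, and the filter at 50 UMIs kept 2 for Kit. Leaving out the stem top band, leaving out the clusters, the use of all UMIs, equal depth in clusters, TMM scaling of the related lists and the interferon list were chosen after seeing the data. Kit, at 0.0712 and 0.0700 UMIs per thinned cell in library 2 and library 1, is where depth limits most.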
